A study of Mus musculus with 8 samples.

Results

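The transcripts of 10 subunits of eukaryotic initiation factor 3 (eIF3) were followed in mouse acute myeloid leukemia (AML) cells from animals given vehicle or AG636, an inhibitor of dihydroorotate dehydrogenase (DHODH), an enzyme of de novo pyrimidine synthesis. The 10 genes, Eif3a, Eif3b, Eif3c, Eif3e, Eif3f, Eif3h, Eif3i, Eif3k, Eif3l and Eif3m, were picked by name out of the 54838 Ensembl genes of the count table, and all 10 were found and passed the filter on low counts. Per the labels, the cells were AML cells of genotype RUNX1-RUNX1T1 on a C57BL/6 background, carried in sub-lethally irradiated Ptprca recipients, with 4 Vehicle samples and 4 samples given AG636 orally at 100 mg/kg b.i.d.. All samples therefore share the fusion oncogene. In the methods of the study such leukemias were grown from cryopreserved cells of a moribund mouse. Whether all samples stem from the same donor mouse is not given. The cells were sorted from bone marrow and spleen, which the labels do not assign to samples, and the study describes them as rich in the progenitor receptor cKit. The age of the mice is not given in the sources used here, and those sources differ on how long treatment lasted and on the number of mice per group. They also differ on the irradiation, which the methods of the study name only for its other leukemia models. Nothing states that the 4 samples of a group came from separate mice, so p-values measure the spread between these samples.

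eIF3 is the largest of the initiation factors. It binds the 40S ribosomal subunit, keeps it free of the 60S subunit, helps to load the initiator methionyl-tRNA carried by eIF2, and connects the 40S subunit to the cap-bound mRNA through eIF4G. In mammals its core is an octamer in which Eif3a, Eif3c, Eif3e, Eif3k, Eif3l and Eif3m contribute PCI domains, helical scaffolding modules, and Eif3f and Eif3h contribute MPN domains. Eif3b, a β-propeller scaffold with an RNA recognition motif, and Eif3i, a WD-repeat propeller, lie outside the octamer and attach to it through Eif3a. The same plan of PCI and MPN subunits is found in the lid of the proteasome and in the COP9 signalosome.

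Promoter windows from RefSeq (GRCm38.p6, 250 bases before to 50 bases after the annotated start) were available for 7 of the 10 genes, Eif3a, Eif3b, Eif3c, Eif3f, Eif3k, Eif3l and Eif3m. The last 120 bases before the start are shown for the 4 genes that fell past the threshold under AG636 and for Eif3f, which had the highest fold change of the 10. Capitals mark matches, on either strand, to 6 motifs. The E-box was searched as CACGTG and the GC box as GGGCGG. For YY1, the factor that the study examined, the letters were AAGATGGC, for ETS factors they were CCGGAAGT, and for the CCAAT box those of its name. The motif of NRF1 was searched as well. Other letters that a factor may bind were not searched, so a window without a match can still hold such a site. Matches to different motifs did not overlap in these stretches. The positions are chr19:60790694-60790813 (minus strand) for Eif3a, chr5:140419185-140419304 (plus strand) for Eif3b, chr7:126566367-126566486 (minus strand) for Eif3c, chr15:79075103-79075222 (plus strand) for Eif3l and chr7:108934295-108934414 (plus strand) for Eif3f.
Eif3a: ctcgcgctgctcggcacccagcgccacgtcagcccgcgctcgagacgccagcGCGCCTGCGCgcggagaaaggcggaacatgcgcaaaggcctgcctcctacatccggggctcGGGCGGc
Eif3b: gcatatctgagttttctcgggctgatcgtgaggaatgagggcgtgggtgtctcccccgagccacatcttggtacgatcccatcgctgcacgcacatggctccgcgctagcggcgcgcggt
Eif3c: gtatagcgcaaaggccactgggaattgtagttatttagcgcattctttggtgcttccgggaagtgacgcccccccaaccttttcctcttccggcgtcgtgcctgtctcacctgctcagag
Eif3l: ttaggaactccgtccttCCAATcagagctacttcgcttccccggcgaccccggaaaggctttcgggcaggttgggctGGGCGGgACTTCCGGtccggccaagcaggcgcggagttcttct
Eif3f: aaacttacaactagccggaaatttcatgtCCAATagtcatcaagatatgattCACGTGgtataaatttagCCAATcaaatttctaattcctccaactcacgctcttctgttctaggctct

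In the whole windows, the GC box was matched in all 4 lowered genes, Eif3a, Eif3b, Eif3c and Eif3l, and in Eif3m, but not in Eif3f or Eif3k. It is a common match, held by 35.7% of all 32851 windows. The NRF1 motif was found in Eif3a and Eif3k (4.60% of all windows), the ETS letters in Eif3l alone (3.89%), and the E-box in Eif3a, Eif3f and Eif3k (7.15%). The CCAAT box was matched in Eif3f, Eif3k and Eif3l (37.4%). The YY1 letters were matched in 1 of the 7 windows, that of Eif3f, against 2.75% of all windows. The match began 15 bases into the transcript, counted from 1 at the annotated start, and the start of Eif3f was also the only 1 of the 7 to be a C that opens a run of at least 5 pyrimidines, a feature of 2.51% of all windows. The stretch around it (chr7:108934407-108934436, plus strand, capitals for the YY1 letters) is shown because it holds both. The start is the ninth base, and the run from there is 11 pyrimidines long.
Eif3f: taggctctctctctttctcggcAAGATGGC

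In the mm10 coordinates of the count table the 10 genes lie on 6 chromosomes, and a count sums the reads over the exons of each gene. Eif3c (ENSMUSG00000030738, chr7:126546455-126566411, minus strand), Eif3f (ENSMUSG00000031029, chr7:108934417-108942951, plus strand) and Eif3k (ENSMUSG00000053565, chr7:28971372-28981864, minus strand) lie on chromosome 7, far from each other. Eif3e (ENSMUSG00000022336, chr15:43250058-43282719, minus strand), Eif3h (ENSMUSG00000022312, chr15:51786558-51865523, minus strand) and Eif3l (ENSMUSG00000033047, chr15:79075179-79094405, plus strand) lie on chromosome 15. The others are Eif3a (ENSMUSG00000024991, chr19:60761116-60790693, minus strand), Eif3b (ENSMUSG00000056076, chr5:140419328-140443360, plus strand), Eif3i (ENSMUSG00000028798, chr4:129591960-129600648, minus strand) and Eif3m (ENSMUSG00000027170, chr2:104999656-105017080, minus strand). Chromosomes 7 and 15 each held 1 of the genes called lower under AG636 and 2 that were not called.

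Sequencing gave 6120030 to 7162036 counts per sample, of which the 10 genes took 0.376 to 0.389% in Vehicle and 0.342 to 0.367% in AG636 samples. The counts of a single one of the 10 genes in a single sample ran from 652 to 6925. Poisson counting error alone came to 1.26 to 3.46% of the level in Vehicle, beside coefficients of variation between Vehicle samples of 2.26 to 10.7%. For Eif3l it was 2.80%, above the 2.35% seen between samples, and for Eif3c and Eif3k it made up most of the spread. Marker lists were used to check the cell type. Kit, Myb and Gata2 averaged 163 to 447 counts per 1000000 counts (CPM) in Vehicle, whereas the granule genes Mpo, Elane, Prtn3 and Ctsg of the same list of 8 progenitor markers averaged at most 3.18 CPM. Cd34, the remaining gene of that list, was also low and averaged 8.63 CPM in Vehicle. It had 223 counts in AG636 sample 3, against 28 to 32 in the other AG636 samples. Ly6g and Itgam, defining markers of mature neutrophils, had at most 5 counts in any sample, whereas S100a8 and S100a9 of the same list reached 526 and 489. Itgam encodes CD11b, and a figure legend of the study gives the sorted cells as positive for cKit and negative for CD11b. The levels of Kit and Itgam can thus restate that sorting and are no independent check of the cell type. The summed level of the 7 erythroid markers ran from 2065 to 5912 CPM in Vehicle and from 4515 to 6011 CPM in AG636. Of the 7, 1 was called higher, Hbb-bt, where 5.47% of all tested genes were called higher. All 7 had fitted log2 fold changes above 0, from 0.20 for Hba-a1 to 1.58 for Slc4a1. The 8 neutrophil markers summed to 43.8 to 103 and 14.8 to 204 CPM, the 6 macrophage markers to 3.996 to 7.27 and 4.15 to 11.4 CPM, the 6 B cell markers to 5.38 to 13.4 and 10.7 to 22.5 CPM with 1 gene, Cd79a, called higher, and the 6 T and NK cell markers to 5.63 to 10.5 and 5.27 to 20.6 CPM. The 5 B cell markers tested all had fitted log2 fold changes above 0, and the 5 neutrophil markers tested all had values below 0. The part of these other cells in the results was not tested. The sum of the 8 progenitor markers ran from 924 to 1105 CPM in Vehicle and from 1067 to 1262 CPM in AG636.

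To establish how abundant each subunit transcript was before treatment, levels were compared in the Vehicle samples. Because the QuantSeq kit reads the 3′ end of each poly-A transcript, CPM values were compared between genes without division by length. Eif3a, the scaffold that holds the complex together, was the most abundant at 956 ± 48.9 CPM (SD, n = 4), and Eif3m was the least abundant at 126 ± 13.6 CPM. Between them came Eif3e (554 ± 25.6 CPM), Eif3f (470.5 ± 29.1 CPM), Eif3c (465 ± 10.5 CPM), Eif3k (377 ± 8.94 CPM), Eif3h (331 ± 20.03 CPM), Eif3i (289 ± 13.4 CPM), Eif3l (193 ± 4.55 CPM) and Eif3b (165 ± 8.46 CPM). Of the neighbours in this order, only Eif3f and Eif3c had overlapping ranges in the 4 Vehicle samples. In AG636 samples Eif3f stood second and Eif3e came next, and the ranges overlapped for 5 neighbouring pairs, namely Eif3f with Eif3e, Eif3c with Eif3k, Eif3k with Eif3h, Eif3l with Eif3b, and Eif3b with Eif3m. The transcripts of subunits that make up one particle thus differed several-fold in level in either group. For Eif3m the level is less certain, because its 3′ end shares 82 bases with Ccdc73 and the assignment of such reads is not given.

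**Figure D1:**
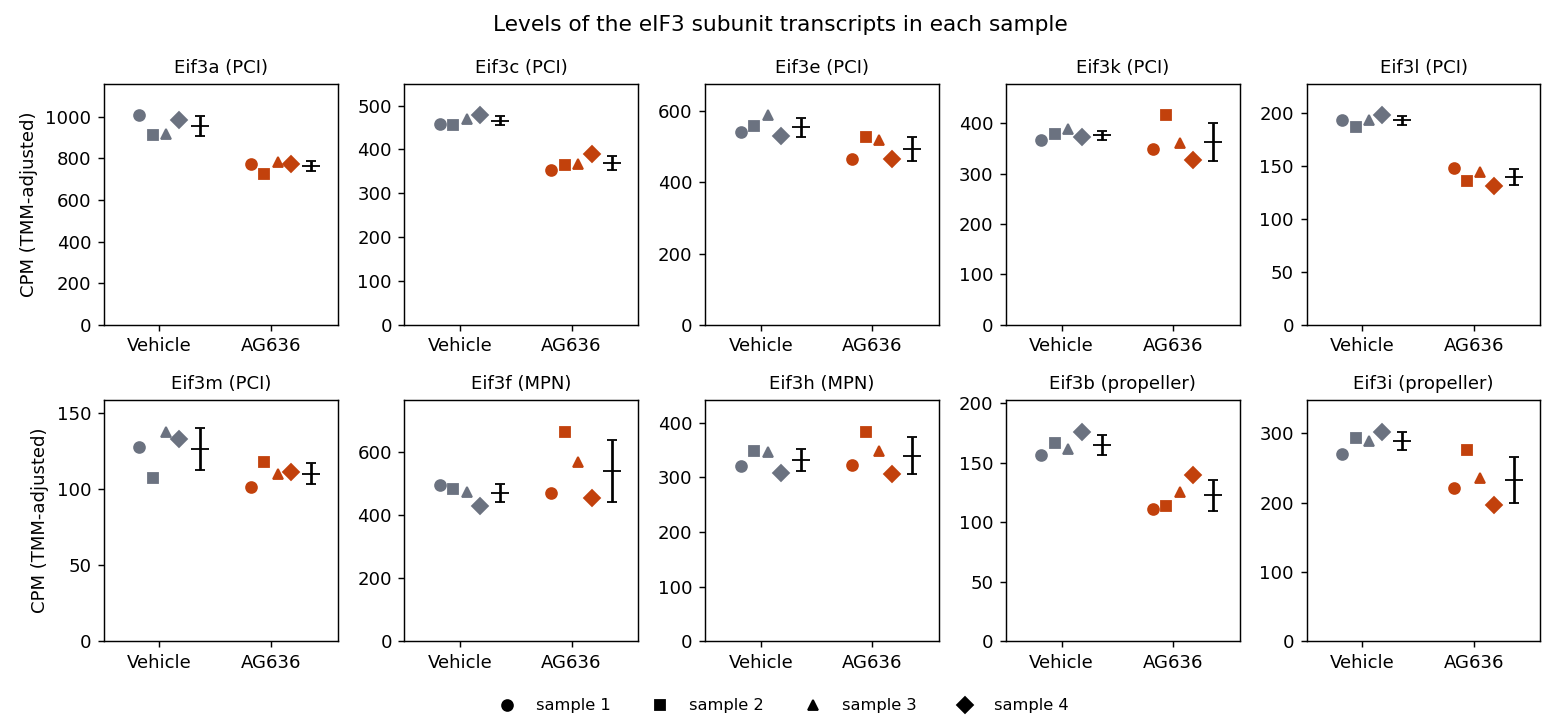
Level of each of the 10 eIF3 subunit transcripts in CPM scaled to the TMM-adjusted library size (vertical axes start at 0) in the 4 Vehicle samples (grey) and the 4 AG636 samples (orange), with the marker shape giving the sample number and the black bar the mean ± SD. Eif3a, Eif3b, Eif3c, Eif3e and Eif3l show no overlap between the groups, and Eif3f reaches 666 CPM in AG636 sample 2 against at most 496 CPM in Vehicle.

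To determine how DHODH inhibition altered these transcripts, both groups were set against each other in 1 limma-voom fit of all 10911 tested genes. Eif3l, Eif3b, Eif3c and Eif3a fell, to between 72.4 and 79.9% of the Vehicle mean, and 0 of the 10 rose. The other 6 did not pass the threshold of an adjusted p-value of 0.05. Thus 4 of the 10 were called lower, where 14.0% of all tested genes were called, 8.49% as lower and 5.47% as higher. By edgeR and by DESeq2 the count called higher was also 0, and at an unadjusted limma p-value under 0.05 the counts were 5 lower and 0 higher, where 17.0% of all tested genes passed as lower and 13.7% as higher. The median log2 fold change of the 10 genes was −0.26, and that of all tested genes was −0.0056. In these bulk samples, less RNA per cell and fewer cells of a kind cannot be told apart.

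Eif3l, a PCI subunit at the edge of the octamer that binds Eif3k, had the largest fall of the 10. Its level was 194, 187, 194 and 198 CPM in Vehicle samples 1 to 4 and 148, 136, 144 and 131 CPM in AG636 samples 1 to 4. Every AG636 sample lay below every Vehicle sample, and the spread within each group was narrow. The log2 fold change was −0.47 (SE 0.07, 95% interval −0.63 to −0.30, limma adjusted p = 0.00434), which placed Eif3l at rank 151 of the 10911 genes by p-value. It passed the threshold in all 8 fits that left out 1 sample.

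Eif3b, which docks the propeller subunits and contacts the 40S subunit, was at 156, 167, 161 and 176 CPM in Vehicle samples and at 111, 114, 126 and 140 CPM in AG636 samples. The groups again did not overlap, and AG636 sample 4 came closest to the Vehicle range. Its log2 fold change was −0.43 (SE 0.09, 95% interval −0.63 to −0.23, limma adjusted p = 0.0130).

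Eif3c, a PCI subunit of the octamer that contacts the 40S subunit and eIF1, was at 458, 456, 469 and 478 CPM in Vehicle samples and at 353, 364, 366 and 390.4 CPM in AG636 samples. All 4 AG636 samples lay below all 4 Vehicle samples. On the log2 scale the difference was −0.34 (SE 0.07, 95% interval −0.50 to −0.18, limma adjusted p = 0.0124).

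Eif3a was at 1009, 911, 919 and 987 CPM in Vehicle samples and at 774, 727, 783 and 774 CPM in AG636 samples. No AG636 sample came near the Vehicle range, and samples 1, 3 and 4 lay close together. A log2 fold change of −0.32 was fitted (SE 0.08, 95% interval −0.49 to −0.16, limma adjusted p = 0.0187). Of the 4 lowered genes it was the only one to miss the threshold of 0.05 in any alternative. Its adjusted p-value by limma was 0.0696 without Vehicle sample 1, 0.0516 without Vehicle sample 3 and 0.0596 without Vehicle sample 4, and with library size alone as the scaling it was 0.0605 at a log2 fold change of −0.25.

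Eif3i, the WD-repeat partner of Eif3b, had as large a fitted change as Eif3a but a wider spread. Its level was 270.5, 293, 289 and 302 CPM in Vehicle samples and 221, 276, 235 and 197 CPM in AG636 samples. AG636 sample 2 lay inside the Vehicle range, while the other AG636 samples lay below it. For Eif3i the fitted value was −0.32 on the log2 scale (SE 0.10, 95% interval −0.55 to −0.09, limma adjusted p = 0.0612). Without AG636 sample 2 the value was −0.41 with an adjusted p-value of 0.0157 by limma.

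Eif3e, a PCI subunit of the octamer, was at 541, 557, 589 and 530.4 CPM in Vehicle samples and at 465, 527, 518 and 464 CPM in AG636 samples. The groups did not overlap, but AG636 sample 2 lay just under Vehicle sample 4. The log2 fold change of −0.17 did not pass the threshold (SE 0.08, 95% interval −0.35 to 0.01, limma adjusted p = 0.178).

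Eif3m, the PCI subunit with the lowest transcript level, was at 128, 107, 138 and 133 CPM in Vehicle samples and at 101, 118, 110 and 111 CPM in AG636 samples. Vehicle sample 2 lay among the AG636 samples. Its fitted log2 difference was −0.19 (SE 0.10, 95% interval −0.41 to 0.02, limma adjusted p = 0.201). Eif3m is overlapped on the other strand by Ccdc73, which had 301 counts against 6186 for Eif3m over the 8 samples. How reads in the overlap were assigned is not given, so the effect of this neighbour on the level of Eif3m cannot be told.

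The MPN subunits and Eif3k showed no fall past the threshold. Eif3f, an MPN subunit of the octamer, was at 496, 483, 475 and 429 CPM in Vehicle samples and at 471, 666, 570 and 456 CPM in AG636 samples. AG636 samples 2 and 3 lay above every Vehicle sample and samples 1 and 4 lay within the Vehicle range. The fitted log2 difference was 0.19 (SE 0.12, 95% interval −0.08 to 0.45, limma adjusted p = 0.325), and the SD rose from 29.1 CPM in Vehicle to 97.7 CPM in AG636.

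Eif3h, the other MPN subunit and the partner of Eif3f, was at 321, 348, 347 and 307 CPM in Vehicle samples and at 322, 383, 348 and 305 CPM in AG636 samples. The groups overlapped almost fully. The fitted log2 difference was 0.04 (SE 0.09, 95% interval −0.17 to 0.24, limma adjusted p = 0.831), and its sign turned to −0.03 without AG636 sample 2. Eif3k, the small PCI subunit that binds Eif3l, was at 367, 379, 388 and 373 CPM in Vehicle samples and at 350, 417, 360 and 327 CPM in AG636 samples. Sample 2 was again the highest of the AG636 group and sample 4 the lowest. For Eif3k the fitted log2 difference was −0.06 (SE 0.09, 95% interval −0.25 to 0.13, limma adjusted p = 0.695), with a value of 0.01 without AG636 sample 4 and with library size alone. The intervals of Eif3f, Eif3h and Eif3k held 0. That of Eif3a, −0.49 to −0.16, overlapped those of Eif3h and Eif3k but not that of Eif3f. Differences between genes were not tested.

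**Figure D2:**
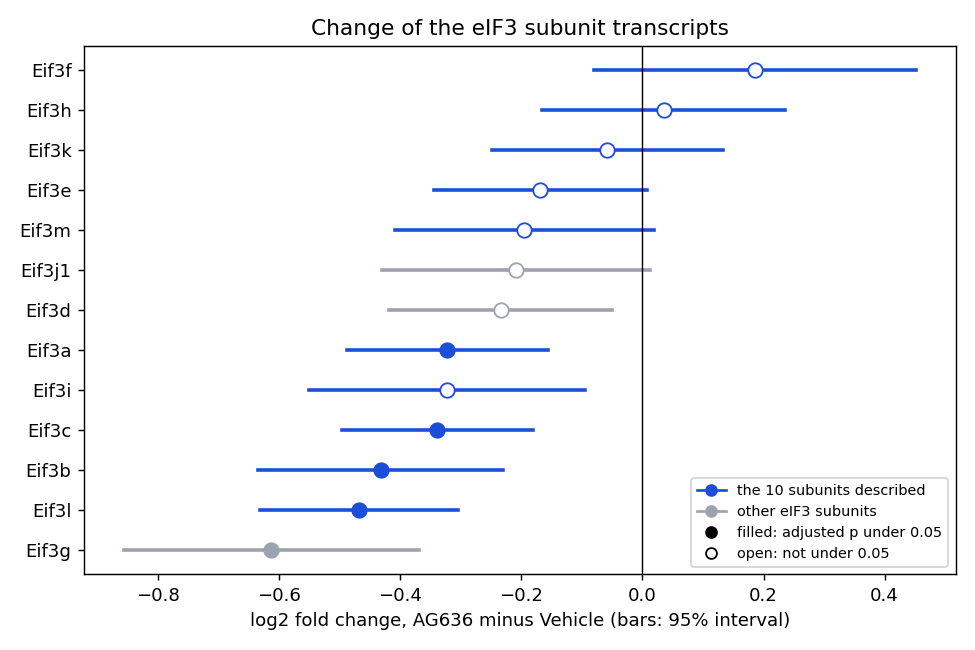
Fitted log2 fold change (horizontal axis, AG636 minus Vehicle) of the 10 eIF3 subunits described (blue) and of 3 further eIF3 subunits (grey), with 95% intervals from limma-voom over 8 samples; filled circles have an adjusted p-value under 0.05. Eif3l, Eif3b, Eif3c and Eif3a are filled and lie between −0.47 and −0.32, and Eif3f and Eif3h lie to the right of 0, Eif3h not so with sample quality weights or without AG636 sample 2.

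By fold class, 3 of the 6 PCI subunits and 1 of the 2 propeller subunits were called lower, and 0 of the 2 MPN subunits, where 8.49% of all tested genes were called lower. With 2 genes in a class, a count of 0 does not set the MPN subunits apart. All 6 PCI subunits had fold changes below 0, from −0.47 to −0.06, although that of Eif3k turned to 0.01 with library size alone and without AG636 sample 4. Both MPN subunits had values above 0, but Eif3h fell below 0 with sample quality weights and without AG636 sample 2. By edgeR's quasi-likelihood test and by DESeq2 the 4 genes called lower, with Benjamini-Hochberg adjusted p-values under the same threshold, were also Eif3a, Eif3b, Eif3c and Eif3l. The groups did not overlap in 5 of the 10 genes, the 4 called genes and Eif3e, all lower in AG636, against 12.9% of all tested genes that did not overlap and were lower and 9.35% that did not overlap and were higher.

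Because the subunits act in one particle, they were also compared with each other inside each sample, which removes the scaling of the libraries. The share of Eif3f in the summed counts of the 10 genes was 12.6, 12.4, 11.96 and 10.96% in Vehicle samples and 14.2, 17.9, 16.0 and 13.8% in AG636 samples. The share of Eif3h was 7.85 to 8.95% in Vehicle and 9.26 to 10.3% in AG636 samples, and that of Eif3k was 9.32 to 9.78% and 9.93 to 11.2%. All 3 shares were higher in every AG636 sample than in any Vehicle sample. The share of Eif3l moved the other way, from 4.82 to 5.06% in Vehicle to 3.64 to 4.46% in AG636 samples, also without overlap. The shares of the remaining 6 genes overlapped between the groups, and Eif3a remained the largest with a mean of 24.4 ± 1.24% in Vehicle and 22.1 ± 1.85% in AG636 (SD, n = 4). A share can rise because other members of the sum fell, so these values describe the make-up of the 10 transcripts and no gene alone. The number of shares without overlap has no background over all tested genes, as the sum is of these 10 only.

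**Figure D3:**
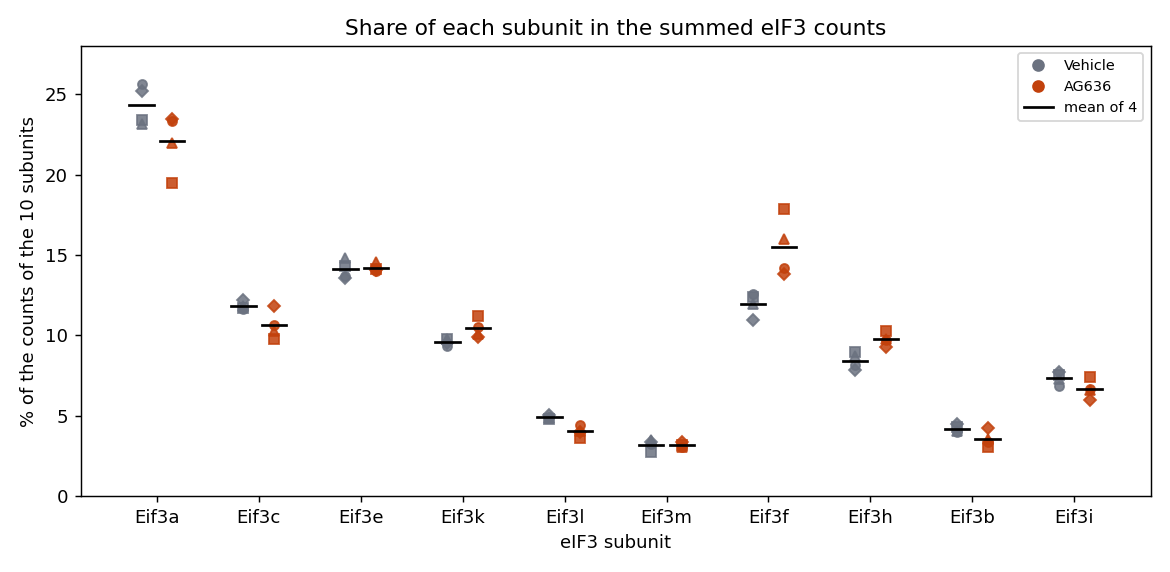
Share of each subunit in the summed counts of the 10 eIF3 genes (vertical axis, percent) in each Vehicle (grey) and AG636 (orange) sample, with the mean of 4 samples as a black line. Eif3f, Eif3h and Eif3k hold a larger share in every AG636 sample and Eif3l a smaller one.

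The same was seen in ratios of one subunit to another. Of the 45 pairs of the 10 genes, 19 had a log2 ratio of counts that did not overlap between groups, where 19.7% of all pairs of tested genes did so, and each gene is part of 9 of the 45 pairs. Of these, 16 set Eif3f, Eif3h or Eif3k against a subunit other than these 3. In contrast, 0 of the 15 pairs formed among Eif3a, Eif3b, Eif3c, Eif3e, Eif3i and Eif3m separated the groups, a subset noticed after the values were seen. The log2 ratio of Eif3k to Eif3l, which are neighbours in the octamer, was 0.91 to 1.02 in Vehicle and 1.24 to 1.62 in AG636 samples, a difference of means of 0.41. That of Eif3f to Eif3l went from 1.11 to 1.37 in Vehicle to 1.67 to 2.29 in AG636 samples, a difference of 0.65. The ratio of Eif3f to Eif3h, its MPN partner, overlapped between the groups. The count of 19 pairs became 20 to 25 when single samples were left out. It could not fall, because the ratios use unscaled counts and fewer samples only narrow each range.

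The AG636 samples differed among themselves in a way that ran through several subunits. Relative to the Vehicle mean, the level of Eif3f in AG636 samples 1 to 4 differed by 0.0024, 0.50, 0.28 and −0.04 on the log2 scale. For Eif3h the differences were −0.04, 0.21, 0.08 and −0.11, and for Eif3k they were −0.11, 0.14, −0.07 and −0.20. Sample 2 had the highest and sample 4 the lowest value in each of these. Eif3i followed the same order of highest and lowest, with −0.06 in sample 2 and −0.55 in sample 4. Eif3e was also highest in sample 2, at −0.07, and lowest in samples 1 and 4, at −0.25 in each. For Eif3m sample 2 was the highest as well, at −0.09, but sample 1 was the lowest, at −0.31. Eif3b and Eif3c showed another order, with their highest values of −0.24 and −0.25 in sample 4. Eif3a varied least, between −0.39 and −0.29. As a whole, 10 of 10 subunits lay below the Vehicle mean in AG636 sample 4, 9 in sample 1, 8 in sample 3 and 7 in sample 2. These counts depend on the scaling of each sample and have no background over all tested genes beside them.

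Proteins of the 40S subunit, to which eIF3 binds, were set beside this pattern. The median difference from the Vehicle mean over 32 tested genes for 40S proteins was −0.26, 0.27, −0.05 and −0.26 log2 units in AG636 samples 1 to 4. Sample 2 was thus the highest for these genes as it was for Eif3f, Eif3h, Eif3k, Eif3i, Eif3e and Eif3m, and samples 1 and 4 were the lowest. Over 21 other initiation and related factors the median was −0.39, −0.48, −0.43 and −0.23, with sample 2 the lowest. Sample 4 was the highest for these factors, as it was for Eif3b and Eif3c. Whether the 40S protein genes have a part in the spread of the eIF3 subunits was not tested.

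**Figure D4:**
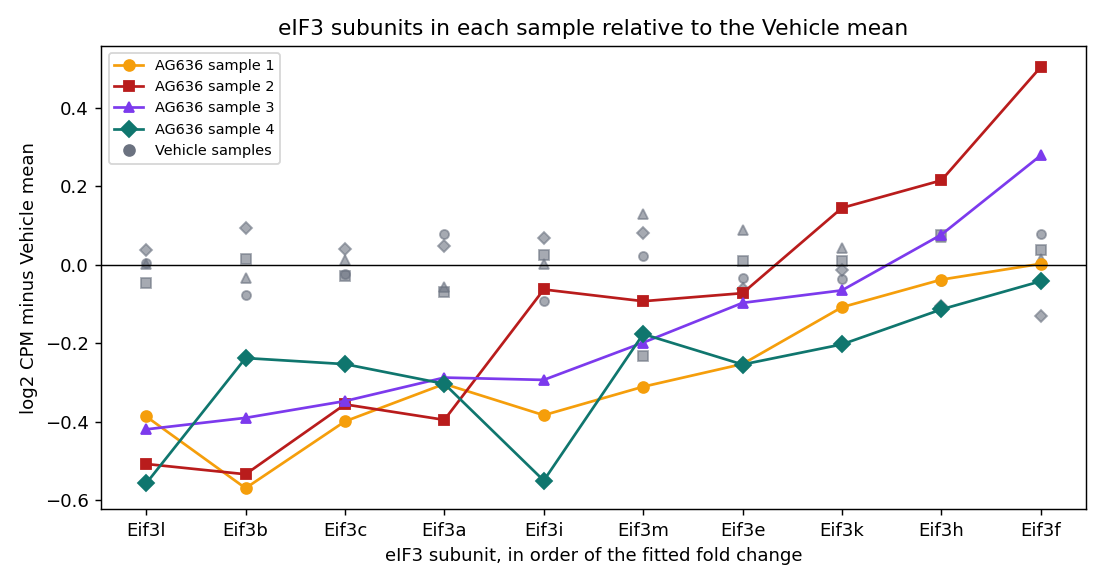
Log2 CPM of each of the 10 eIF3 subunits minus its mean over the 4 Vehicle samples (vertical axis), with subunits ordered by fitted fold change on the horizontal axis. Lines join the values of 1 AG636 sample and grey points are Vehicle samples; sample 2 (red) runs from −0.53 for Eif3b to 0.50 for Eif3f, whereas sample 4 (green) lies below 0 throughout.

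The remaining eIF3 subunits were then examined. Eif3g, an RNA-binding subunit that joins Eif3b and Eif3i, was at 188, 198, 197 and 225 CPM in Vehicle samples and at 125, 132, 113 and 160.3 CPM in AG636 samples. It fell by 0.61 on the log2 scale (SE 0.11, limma adjusted p = 0.00663), without overlap, which was a larger change than that of any of the 10 genes. Eif3d, a subunit that can bind the mRNA cap, averaged 201 ± 8.28 CPM in Vehicle and 171 ± 14.7 CPM in AG636 (SD, n = 4, log2 fold change −0.23, limma adjusted p = 0.0847). Eif3j1, the loosely bound subunit, averaged 64.7 ± 6.68 and 55.8 ± 3.83 CPM (log2 fold change −0.21, limma adjusted p = 0.187). Its copy Eif3j2 had at most 8 counts in any sample and was too low to test. The 3′ ends of these copies matched over 300 bases at 99.7% identity, so the assignment of reads between them is uncertain.

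Other initiation and related factors were examined next. Beside factors of the initiation complexes the list held Denr, Mcts1, Eif2d and Eif6, of which Denr and Eif6 were called lower and Eif2d higher. Of 21 factors tested, 11 were called lower, 1 was called higher and 9 were not called, where 8.49% of all tested genes were called lower and 5.47% higher. Their median log2 fold change was −0.36. Eif4a1, the helicase of the cap-binding complex, went from 524 ± 44.04 CPM in Vehicle to 302 ± 32.4 CPM in AG636 (SD, n = 4), a log2 difference of −0.80 (SE 0.10) with an adjusted p-value by limma of 0.00185. Eif4b, which stimulates that helicase, fell from 313 ± 12.6 to 177 ± 26.8 CPM, a log2 difference of −0.83 (SE 0.11) with a limma adjusted p of 0.00195. Denr, which acts in reinitiation and ribosome recycling, fell from 227 ± 19.3 to 140.1 ± 18.3 CPM with a log2 difference of −0.70 (SE 0.11, limma adjusted p = 0.00404). These 3 changes were larger than any of the 10 eIF3 subunits showed. Eif2d, named after its value was seen, was the only one called higher and rose by 0.50 on the log2 scale (limma adjusted p = 0.0352). Of the 32 genes for 40S proteins, 1 was called lower, a share of 3.12%, with a median log2 fold change of −0.05. That gene was Rps2, at −0.36 on the log2 scale and an adjusted p-value of 0.0482 by limma.

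The complexes built on the same PCI and MPN plan were compared as well. Of 8 proteasome lid genes tested, 4 were called lower and 0 higher, against 8.49% of all tested genes called lower, with a median log2 fold change of −0.28 and values from −0.47 to −0.11. Psmd6 changed by −0.47 (adjusted p-value by limma 0.0192), Psmd7, an MPN subunit, by −0.35 (0.0192) and Psmd3 by −0.32 (0.0293). Of 9 COP9 signalosome genes, 1 was called lower, Cops3 with −0.43 (adjusted p-value 0.0250 by limma), a share of 11.1% that lies near the 8.49% of all tested genes, and the median was −0.26 with values from −0.43 to −0.14. The medians of these complexes were close to the −0.26 of the eIF3 subunits, and no gene of either complex had a fitted fold change above 0 with TMM scaling.

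**Figure D5:**
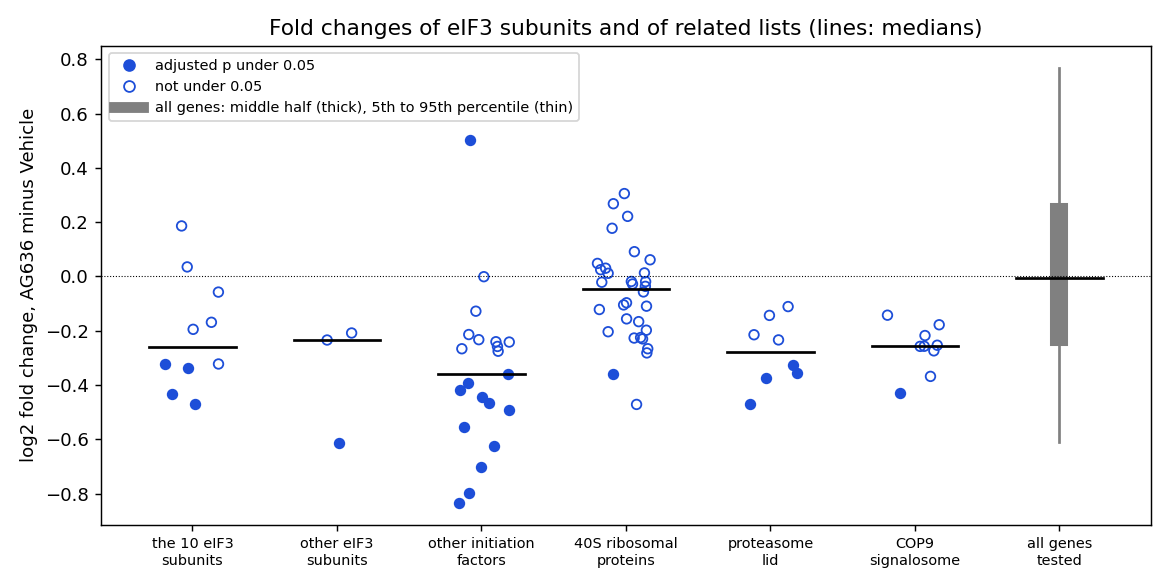
Log2 fold change (vertical axis, AG636 minus Vehicle) of each tested gene in 6 lists, with filled circles for an adjusted p-value under 0.05 by limma and a black line at the median; the grey bar gives the middle part (25th to 75th percentile) and the thin line the 5th to 95th percentile of all 10911 tested genes. The medians are −0.26 for the 10 eIF3 subunits, −0.36 for the other initiation factors and −0.05 for the 40S proteins.

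Finally, the genes whose profile over the 8 samples was most like the mean of the 10 subunits were looked up among 5251 well expressed genes. Npm1, which encodes the nucleolar protein nucleophosmin, had the highest Pearson correlation at 0.995 and went from 1987 ± 47.8 CPM in Vehicle to 1251 ± 196 CPM in AG636 (SD, n = 4). The next were Setd1b, a histone methyltransferase gene (0.974), Eif5, the initiation factor that triggers hydrolysis of GTP on eIF2 (0.965), Pgls, of the pentose phosphate pathway (0.964), and Ube2v2, a ubiquitin-conjugation gene (0.963). All 5 were called lower. The 8 samples hold both groups, so that these correlations largely restate the difference between them, and they are given as a description.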

How the data were processed

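The authors sequenced QuantSeq 3′ mRNA libraries, removed reads of low quality, trimmed primer-derived and poly-A bases with cutadapt, mapped to mm10 with HISAT2 and counted reads per gene with featureCounts of the subread package. The submitters' processing notes give HISAT2 2.0.4 and cutadapt 1.9.1. The handling of strand and of reads with several positions is not given in the sources used here. The deposited values are raw counts per Ensembl gene, with all 8 columns matched to sample titles; 54723 of 54838 genes had a symbol in the name table.

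Genes were kept by filterByExpr (minimum count 10), scaled by TMM and compared with limma-voom in R 4.3.3 (edgeR 4.0.16 and limma 3.58.1), with group as the only term, two-sided, with Benjamini-Hochberg adjustment over all genes tested and a threshold of 0.05. limma is the tool named by the study. CPM values use the TMM-adjusted library size, and log2 CPM a prior count of 2. The fit was tested on simulated counts whose planted changes were larger than any seen for the 10 genes. That test does not show how well changes of the size seen here are called. Alternatives were limma-trend, DESeq2 (1.42.0), the quasi-likelihood test of edgeR, sample weights, other scalings and filters, a replicate block, single samples left out and a threshold of 0.01.

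The members and lists were chosen with earlier results of these data known. Named genes were all eIF3 subunits, in each list up to 3 called genes of smallest p-value, and the 5 genes most like the mean profile among genes whose average log2 CPM reached 5. Near-identical copies were sought by aligning the last 300 bases of GENCODE M21 transcripts. Over the 8 samples the matching pseudogenes and antisense gene held at most 5 counts, whereas Ccdc73, which overlaps Eif3m, held 301; Eif3j2, not tested, matched Eif3j1 and, over 112 bases, Spg11 (849 counts). Of the proteasome lid list, 8 of 9 symbols were in the table.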

Additional observations from a re-analysis of the deposited data

Results flagged for a closer look

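Levels of the 13 tested eIF3 subunits were examined in both groups, 26 sets of 4 values, for a sample that lay farther from the others than Dixon's ratio allows at 95%. In 1 set this was so, where chance, at 1 in 20 sets, gives about 1.3. Eif3a in AG636 sample 2 was at 9.51 log2 CPM, against 9.60 to 9.61 in the other AG636 samples. It lay farther from the Vehicle group than they did, and leaving it out gave Eif3a a fitted log2 difference of −0.30 (adjusted p-value by limma 0.0235, with 0.000371 to 0.0696 over all alternatives).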

How the results depend on the processing

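Eif3b, Eif3c and Eif3l stayed under an adjusted p-value of 0.05 by limma, edgeR or DESeq2 in all 19 alternatives at that threshold. The count of the 10 genes called lower was 3 to 5 in them, and 1, Eif3l, at an adjusted p-value under 0.01, where 435 of all genes passed in place of 1523. Leaving out single samples gave 688 to 1706 calls over all genes, with the 4 lowest counts of 798, 918, 688 and 1010 without Vehicle samples 1, 2, 3 and 4, and 3 to 5 of the 10 genes. The log2 fold change of Eif3h turned to −0.0081 with sample quality weights and to −0.0269 without AG636 sample 2, and that of Eif3k to 0.0118 with library size alone and to 0.0064 without AG636 sample 4. Over the fits without 1 sample these values ran from −0.0269 to 0.100 for Eif3h and from −0.127 to 0.0064 for Eif3k; none of these values passed the threshold, and the cause was not tested. Eif3i passed with sample quality weights (limma adjusted p = 0.0255) and without AG636 sample 2. With library size alone 38.3% of all calls were lower, against 60.8% with TMM. The samples share replicate numbers in their titles, but deviations of same-numbered samples correlated at −0.14, 0.01, 0.20 and 0.14, so the numbers were not taken as pairs; with a replicate block 1446 genes were called and 4 of the 10. Counts of genes without overlap among the 10 ranged from 4 to 7. Fits without 1 sample compare 3 with 4 samples. Counting error at this depth, 1.26 to 3.46% of the level in Vehicle, is part of each 95% interval.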
